A study of Mus musculus with 15 samples.

Results

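Chromatin isolation by RNA purification (ChIRP) captures an RNA from cross-linked chromatin with biotinylated oligos complementary to it, and the DNA that comes with the RNA is sequenced. The peaks described here are those of the *116HG* oligo set and of the non-specific control (NSC) oligo set in brain of adult wild-type (WT) C57BL/6J mice. The members were all 92826 regions of the 3 WT peak lists, of 97524 regions in the 5 lists of the series: 78033 in WT *116HG* replicate 1, 11145 in WT *116HG* replicate 2 and 3648 in WT NSC. No deletion or treatment is labelled for the 3 WT groups, and the replicates are biological ones per the study's methods. The remaining lists come from *Snord116del* brain, of mice heterozygous for a deletion of the paternal *Snord116* repeats. They are given only as values beside the WT lists. Each sample was prepared from 1 hemisphere, which mixes neurons, glia and vessels. Peak lists hold no marker of tissue, so the labelled tissue was not checked in them.

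*116HG* is the spliced host transcript left after the *Snord116* small nucleolar RNAs (snoRNAs) are cut out of a paternally expressed primary transcript of the Prader-Willi region. It is retained in the nucleus of neurons and lies near the place where it is made. *Snord115* snoRNAs come from a neighbouring repeat array of the same transcript. The comparison of the 2 oligo sets asks which genomic places were recovered with the *116HG* oligos and which also with the control oligos.

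With 2 *116HG* libraries and 1 NSC library, a permutation of libraries cannot give a p under 0.333. Shares of peaks were therefore compared with Fisher's exact test, two-sided, for each replicate against NSC. This test compares lists, covers counting error only and takes neighbouring peaks as independent. A difference between *116HG* and NSC is written only where both replicates passed an adjusted p of 0.05 on the same side. The NSC oligos were used on WT brain in a single library, so its variation between preparations is unknown, and an effect of the oligos and an effect of that preparation cannot be told apart. Brackets after a share hold exact (Clopper-Pearson) 95% intervals.

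The sequences below show the kinds of place that made up the 3 lists. All are the plus strand of the mm9 reference. First come the peaks with the highest fold over input in replicate 1 and in NSC that are at most 300 bases long and outside untranslated regions, at chr2:73705934-73706076 in an intron of *Atf2*, which encodes a transcription factor, and at chr15:58306610-58306819, between genes. Capitals mark the middle 32 bases, which occur 4 times in the reference for the first and 337 times for the second. The replicate 1 peak was also overlapped by a replicate 2 peak.
highest replicate 1 peak: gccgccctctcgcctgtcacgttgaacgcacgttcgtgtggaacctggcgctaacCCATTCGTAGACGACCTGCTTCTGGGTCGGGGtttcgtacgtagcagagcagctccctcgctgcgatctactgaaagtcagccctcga
highest NSC peak: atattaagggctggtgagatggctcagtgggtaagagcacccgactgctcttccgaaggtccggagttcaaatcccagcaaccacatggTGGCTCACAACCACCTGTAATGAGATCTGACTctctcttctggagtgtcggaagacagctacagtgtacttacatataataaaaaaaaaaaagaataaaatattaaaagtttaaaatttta

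The next sequence shows where the *116HG* lists met. At chr9:110601636-110601703, in an intron of *Ccdc12*, peaks of both *116HG* replicates overlapped and NSC had none. Capitals mark a run of at least 20 A or T, here of 47 bases.
both replicates at Ccdc12: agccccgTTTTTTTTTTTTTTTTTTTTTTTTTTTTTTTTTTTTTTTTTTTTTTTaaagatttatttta

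A peak shared by all 3 lists without such a run, at chr3:37380489-37380642 within *Spata5*, has middle bases, in capitals, that occur 12 times in the reference. An NSC peak at chrX:30299294-30299458, in a region of chromosome X dense with NSC peaks, has middle bases that occur 15 times. Reads from another copy cannot be told apart from reads of the place named, for *Spata5* here and for *Atf2* above, and whether these 2 sequences also occur in ribosomal RNA was not tested. The *Spata5* and chromosome X examples stand for the repeated sequence described below, and the second was chosen after its values were seen.
all 3 lists at Spata5: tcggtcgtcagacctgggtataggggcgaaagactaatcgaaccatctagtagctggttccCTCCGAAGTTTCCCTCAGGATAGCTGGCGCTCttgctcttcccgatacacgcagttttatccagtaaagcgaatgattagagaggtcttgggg
NSC peak on chromosome X: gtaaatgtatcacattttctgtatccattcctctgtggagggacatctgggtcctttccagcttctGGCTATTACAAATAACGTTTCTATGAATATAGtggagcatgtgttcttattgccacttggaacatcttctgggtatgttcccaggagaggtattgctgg

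Exons and snoRNA copies complete the set. A replicate 1 peak at chr4:147914450-147914583 crossed the edge of a 175-base exon of *Mtor*, the kinase at the centre of nutrient signalling, and its exonic bases are in capitals. This peak was also chosen after its values were seen. Replicate 2 peaks lay over annotated copies of *Snord116* at chr7:66928809-66928925 and of *Snord115* at chr7:66676558-66676708, with the snoRNA bases in capitals. Both snoRNAs are transcribed from the minus strand, and the *Snord115* peak was also overlapped by a replicate 1 peak.
Mtor exon in replicate 1: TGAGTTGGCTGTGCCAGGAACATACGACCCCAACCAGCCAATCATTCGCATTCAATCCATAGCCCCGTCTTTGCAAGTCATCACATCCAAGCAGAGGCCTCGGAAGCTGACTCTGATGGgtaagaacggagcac
Snord116 copy in replicate 2: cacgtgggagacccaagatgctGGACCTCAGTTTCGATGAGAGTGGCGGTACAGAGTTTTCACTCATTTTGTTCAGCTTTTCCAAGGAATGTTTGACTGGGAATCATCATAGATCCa
Snord115 copy in replicate 2: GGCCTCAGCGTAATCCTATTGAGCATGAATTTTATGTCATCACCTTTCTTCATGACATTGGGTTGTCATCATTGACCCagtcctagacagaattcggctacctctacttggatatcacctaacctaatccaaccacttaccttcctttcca

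Most replicate 1 peaks lay in exons, and few peaks of replicate 2 or NSC did. Of the peaks on chromosomes 1 to 19, X and Y (77619 in replicate 1, 10664 in replicate 2 and 3378 in NSC), 72.0% of replicate 1 peaks had their middle base in an annotated exon [71.7 to 72.3]. The share was 2.37% in replicate 2 [2.09 to 2.68] and 3.05% in NSC [2.50 to 3.69], while 3.44% of 150-bp windows placed every 20 kb along the genome had their middle in an exon. Replicate 1 was above NSC with an odds ratio of 81.6, for which the adjusted p was too small for the software to represent. Replicate 2 was below NSC (adjusted p = 0.0391, Fisher's exact test). The replicates fell on opposite sides of the control, so no exon difference between *116HG* and NSC is written. The side of replicate 2 was not stable: it was 2.27% against 2.06% in NSC without the regions dense with NSC peaks described below (adjusted p = 0.664, Fisher's exact test), 2.14% against 2.08% with peaks closer than 10 kb merged (adjusted p = 0.931, Fisher's exact test), and did not pass with X and Y left out (adjusted p = 0.145, Fisher's exact test).

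Replicate 1 held peaks in each part of genes. Coding sequence held 39.0% of its peaks, untranslated regions 29.6%, introns 13.3% and the space between genes 14.7%. Introns held 35.3% of replicate 2 peaks and 29.6% of NSC peaks, and 62.3% and 67.4% lay between genes. Grid windows were intronic in 37.7% and between genes in 58.9%. Replicate 2 and NSC thus had somewhat fewer peaks in introns than the grid, and replicate 1 had far fewer because exons took most of its list.

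The exonic peaks of replicate 1 followed exon edges. The share of peaks with an exon at a given distance fell from 72.0% at the middle of the peak to 45.6% at 100 bp upstream and 37.0% at 200 bp upstream. In replicate 2 the share was 2.53% at 100 bp upstream, close to its 2.37% at the middle. Of the 55862 exonic peaks in replicate 1, 26610 (47.6%) crossed an edge of the exon, 19752 (35.4%) covered at least 80% of the merged exon, and 40112 different merged exons were hit. The 253 exonic peaks of replicate 2 lay in 239 exons and 29.6% crossed an edge.

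**Figure D1:**
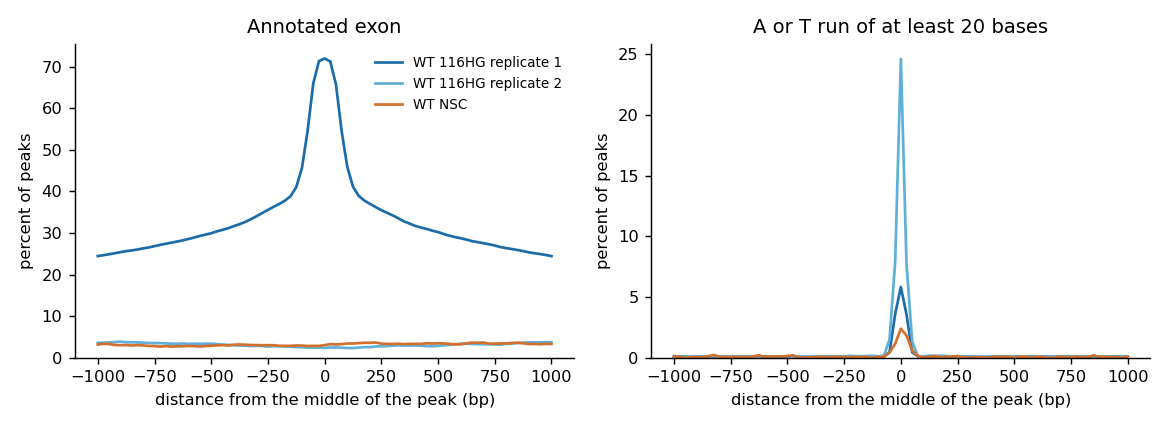
The left panel plots the percent of peaks that have an annotated exon at each distance (bp) from the middle of the peak, and the right panel the percent that have an A or T run of at least 20 bases there, for the 3 WT lists. Replicate 1 alone rises over exons, to 72.0% at the centre. The run is most frequent at the centre in all 3 lists, at 24.6% of replicate 2 peaks, 5.84% of replicate 1 peaks and 2.40% of NSC peaks.

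Peaks inside genes were the one place share that passed in both replicates. Genes held 85.3% of replicate 1 peaks, 37.7% of replicate 2 peaks [36.7 to 38.6] and 32.6% of NSC peaks [31.0 to 34.2], with an odds ratio of 1.25 for replicate 2 against NSC (adjusted p = 1.60e-07, Fisher's exact test). Grid windows lay in genes in 41.1%, above both replicate 2 and NSC. With chromosomes X and Y left out, the shares were 85.6% in replicate 1, 39.9% in replicate 2 and 39.4% in NSC, and replicate 2 no longer passed (adjusted p = 0.706, Fisher's exact test). Replicate 1 peaks lay closer to start sites, at a median of 6.59 kb, against 18 kb in replicate 2, 15.6 kb in NSC and 28.5 kb in the grid windows. Within 500 bp of a start site lay 17.7% of replicate 1 peaks, 3.59% of replicate 2 peaks and 2.72% of NSC peaks.

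The exonic peaks of replicate 1 went with transcript level. The level used was the authors' FPKM (fragments scaled to transcript length and to the mapped fragments of the library) of WT cortex at Zeitgeber +6 h, 1 value per gene for a group of mice and no spread. Of the 7031 protein-coding genes at 1 to 10 FPKM, 92.1% had an exonic replicate 1 peak within the gene or 2 kb of it, and of the 1846 genes at 10 to 100 FPKM 99.3% had one. The share was 28.9% at 0.1 to 1 FPKM, 8.42% at up to 0.1 FPKM and 12.1% of the 91 genes listed at 0. In replicate 2 the exonic share stayed between 0 and 1.69% over the bins, and in NSC between 0 and 2.20%. Outside exons, replicate 2 peaks were at 10.0% of genes at up to 0.1 FPKM, 18.1% at 1 to 10 FPKM and 6.33% above 100 FPKM, so that the highest bin held the lowest share. Median gene length in these bins was 12.2, 27.3 and 4.76 kb. Any replicate 2 peak was at 3.63% of protein-coding genes under 10 kb and 59.7% of those over 200 kb. Level and length were not separated here.

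Across 20225 protein-coding genes, the number of exonic peaks per kb of exon and FPKM had a Spearman rank correlation of 0.832 in replicate 1, 0.0211 in replicate 2 and -0.0146 in NSC. Genes are not independent replicates, and most genes had no exonic peak in the last 2 lists. The median FPKM was 2.59 for genes with an exonic replicate 1 peak, 1.21 for genes with any replicate 2 peak, 0.879 for genes with an NSC peak and 0.157 for genes with no peak in the 3 lists. The peak calls rest on DNA libraries and the FPKM on RNA from other mice.

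**Figure D2:**
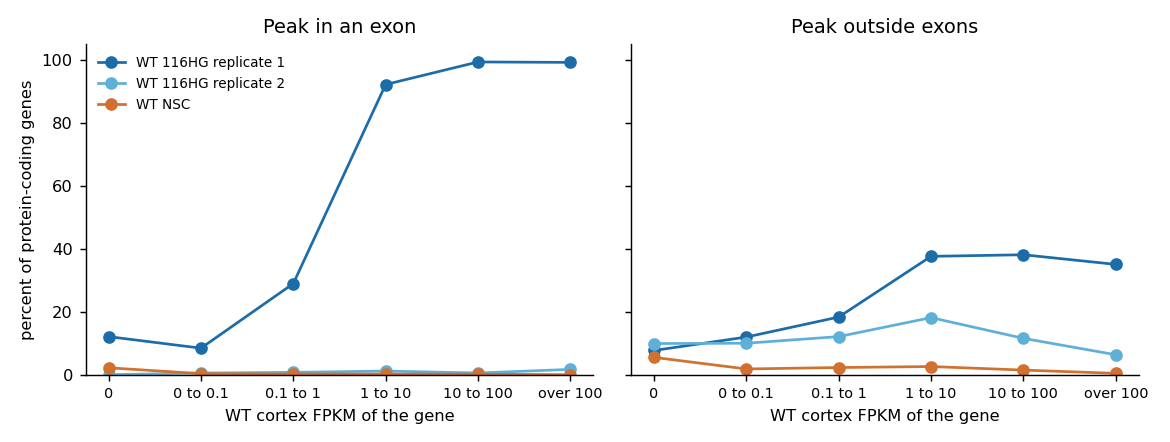
Percent of protein-coding genes with a peak inside or within 2 kb, by bin of the authors' WT cortex FPKM, for peaks in exons (left) and outside exons (right) in the 3 WT lists. On the left, replicate 1 is at 12.1% of genes listed at 0 and 8.42% of those at up to 0.1 FPKM and rises to 99.3% at 10 to 100 FPKM, and replicate 2 and NSC stay at or under 2.20%, which is the NSC share of genes listed at 0.

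The 3 highest-fold replicate 1 peaks were at *Slc1a2*, the main glial glutamate transporter (fold over input 687.45), *Atf2* (677.19) and *Ptgds*, a prostaglandin D synthase abundant in brain (625.89). The *Slc1a2* and *Ptgds* peaks lay in exons and no replicate 2 peak overlapped them, while the *Atf2* peak was intronic and overlapped by replicate 2. The 3 highest NSC peaks, at folds of 56.57, 51.19 and 50.29, lay outside exons, nearest to *D15Ertd621e*, *Fam120a* and *BC057022*. The *Fam120a* peak was overlapped by replicate 2 and none of the 3 by replicate 1.

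Folds of the 2 lists were not on the same scale. In replicate 1, 68.9% of folds were within 0.05 of a whole multiple of 10.26, and in NSC 68.6% were within 0.05 of a whole multiple of 6.29. Counted in such steps, the median peak stood at 5.39 steps in replicate 1 and 4.31 in NSC, so the medians of 55.3 and 27.1 on the scale of the fold came closer. Both lists begin at a fold just above 20, which is where the authors cut them. The lowest step with at least 50 peaks was the third in replicate 1 and the fourth in NSC, and 5124 replicate 1 peaks stood at 3 steps, a height that the cut removes from NSC. The replicate 2 list gives no fold.

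The widths of the lists differed as well. The quartiles of width were 119 and 226 bp in replicate 1, 72 and 138 bp in replicate 2 and 120 and 152 bp in NSC, whose widest peak was 262 bp. Replicate 1 had 12004 peaks over 300 bp (15.4%), replicate 2 132 (1.18%) and NSC none. Replicate 1 peaks over 300 bp were exonic in 85.7% and had a median fold of 92.9. Those under 100 bp were exonic in 32.9% and held an A or T run in 45.5%.

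Runs of A or T were more frequent in both *116HG* lists than in NSC. Of all placed peaks, 9.70% in replicate 1, 32.6% in replicate 2 and 4.50% in NSC held a run of at least 20. The odds ratios against NSC were 2.28 and 10.3, so over all peaks the replicates were far apart. In exonic peaks the shares were 0.773%, 14.2% and 0%, the last of 103 peaks. Outside exons, a run of at least 20 A or T was present in 32.6% of replicate 1 peaks (7100 of 21757) [32.0 to 33.3], 33.1% of replicate 2 peaks (3444 of 10411) [32.2 to 34.0] and 4.64% of NSC peaks (152 of 3275) [3.95 to 5.42]. The odds ratios against NSC were 9.95 and 10.2, with adjusted p = 4.49e-310 and 1.37e-287 (Fisher's exact test). Windows of the genome with the median width of each list, taken every 2 kb, held such a run in 0.389%, 0.228% and 0.339%. NSC peaks outside exons therefore also held more runs than the windows. The *Snord116del* lists held the run outside exons in 0.180% (*116HG*) and 0.417% (NSC). With the regions dense with NSC peaks (below) also set aside, the shares were 32.6%, 35.7% and 8.51%. The run was looked for after the data were seen.

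The run lay at a median of 13.5 bp from the middle of the peak in replicate 1, 7.5 bp in replicate 2 and 15.5 bp in NSC. It had a median length of 32, 31 and 35.5 bases. Peaks with it were narrow, with median widths of 75 bp, 77 bp and 102.5 bp. In peaks so narrow a run cannot lie far from the middle, and whether it was more central than that was not tested. In the peak at *Ccdc12* printed above, the run takes 47 of 68 bases. The letters next to the run differed between lists. Read on the strand where the run is A, the 5 bases GTCTC came just before it in 2.47% of replicate 1 peaks with a run [2.13 to 2.85], 20.5% of replicate 2 peaks [19.1 to 21.8], 28.9% of NSC peaks [21.9 to 36.8] and 4.61% of grid windows with a run. In this feature replicate 2 was nearer to NSC than to replicate 1. In introns of genes on 1 strand, the A run was on the strand of the gene in 39.2% of replicate 1 peaks [37.4 to 41.1], 39.1% of replicate 2 peaks [36.5 to 41.7], 39.7% of NSC peaks [27.6 to 52.8] and 32.3% of grid windows [25.6 to 39.5]. The NSC value rests on 63 peaks, and the differences were not tested.

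Repeated sequence went the other way. The middle 32 bases of the peak occurred more than once in the reference, on either strand, in 87.4% of NSC peaks [86.3 to 88.5], 71.0% of replicate 2 peaks [70.2 to 71.9] and 18.1% of replicate 1 peaks [17.8 to 18.3], against 16.4% of grid windows. Both replicates were below NSC, with odds ratios of 0.353 for replicate 2 (adjusted p = 1.81e-90, Fisher's exact test) and 0.0317 for replicate 1. Among peaks outside exons and without the run, the shares in the same order were 88.4%, 69.6% and 34.99%. Where the middle was repeated, its median number of copies was 21 in NSC, 63 in replicate 2 and 7 in replicate 1. How the aligner placed reads that fit several copies is not given in the sources used here, and its part in these shares was not tested.

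The base composition differed along with these kinds of peak. The median GC content was 47.7% in replicate 1, 35.2% in replicate 2, 39.3% in NSC and 42.0% in grid windows. Without exons and runs the medians were 44.9%, 40.2% and 39.6%, so replicate 2 came close to NSC once its runs were set aside. A CA or TG repeat of 20 bases was present in 1.90%, 2.49% and 1.48% of peaks, against 1.53% of grid windows, and replicate 1 did not pass against NSC (adjusted p = 0.0861, Fisher's exact test).

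**Figure D3:**
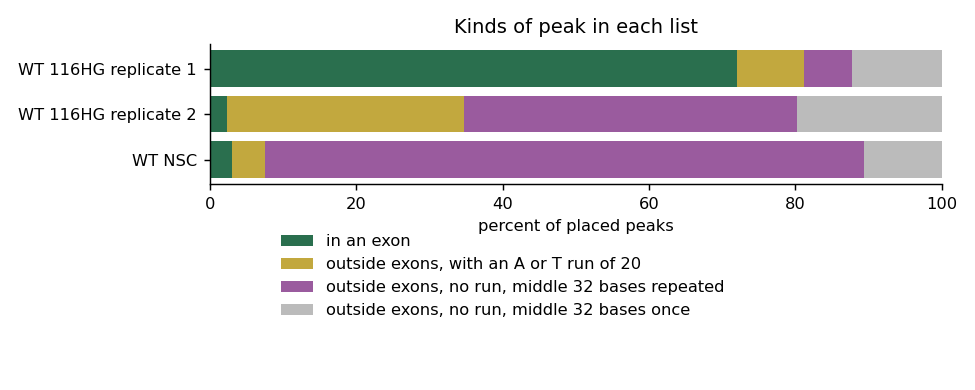
Percent of placed peaks of each WT list in 4 kinds that do not overlap: in an exon, outside exons with an A or T run of at least 20 bases, outside exons with repeated middle 32 bases, and outside exons with middle bases that occur once. Exons make up 72.0% of replicate 1, repeated middle bases 45.5% of replicate 2 and 81.8% of NSC.

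NSC peaks were concentrated on chromosome X. It held 40.5% of placed NSC peaks, 13.5% of replicate 2 peaks and 3.83% of replicate 1 peaks, and makes up 6.33% of the assembled bases. Both replicates were below NSC (adjusted p = 1.85e-229 for replicate 2, Fisher's exact test). Chromosome 4 was also higher in NSC, at 12.8% against 6.28% and 6.60%. On 16 chromosomes both replicates were above NSC, on 2 below, and on 3 of the 21 they did not both pass. Since shares add up to the whole, the large share of X lowers all others in NSC. Peaks on sequences with no place on a chromosome were 7.40% of the NSC list, 4.32% of replicate 2 and 0.531% of replicate 1.

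**Figure D4:**
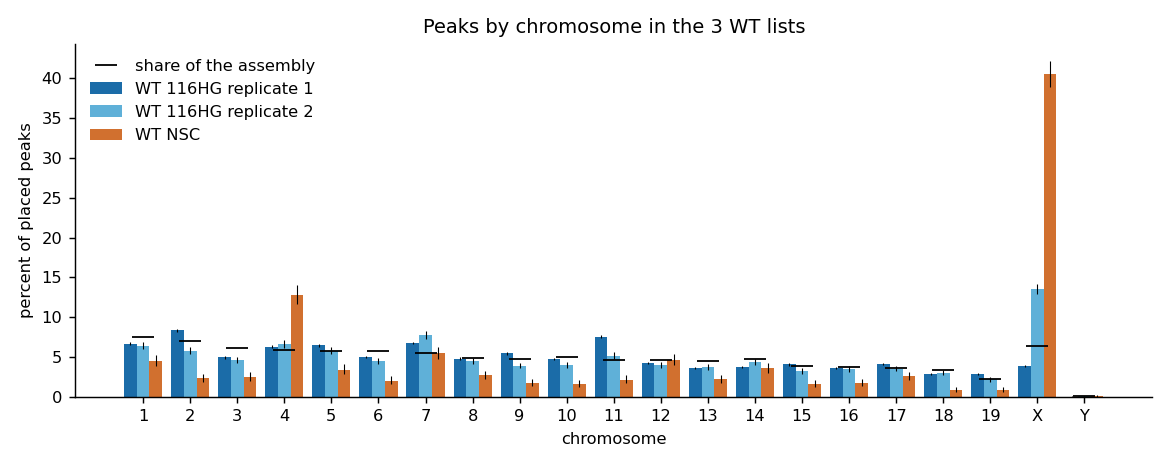
Percent of placed peaks on each chromosome in the 3 WT lists, with exact 95% intervals as thin lines and the share of assembled bases as black ticks. NSC stands at 40.5% on X, where replicate 2 is at 13.5% and replicate 1 at 3.83%.

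A few regions carried this concentration. Megabase bins with at least 35 NSC peaks joined into 5 regions of 14 Mb in all, 0.547% of the assembled bases, chosen by their NSC peaks. They held 1578 NSC peaks (46.7%), 875 replicate 2 peaks (8.21%) and 177 replicate 1 peaks (0.228%). The 2 *Snord116del* lists had 3 and 21 peaks there. The largest, at chrX:26000000-32999999, held 829 NSC, 484 replicate 2 and 33 replicate 1 peaks, and the one at chrX:3000000-4999999 held 333, 220 and 11. That at chr4:145000000-147999999 held 329, 133 and 126. The others were 1-Mb bins on chromosomes 1 and 12. Replicate 2 held more peaks in these regions than their share of bases, and replicate 1 fewer. The middle bases were repeated in 96.96% of the NSC peaks and 97.1% of the replicate 2 peaks there.

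Outside these regions, chromosome X still held 11.5% of NSC peaks [10.1 to 13.1], 7.51% of replicate 2 peaks [6.99 to 8.05] and 3.79% of replicate 1 peaks [3.65 to 3.92]. Both replicates remained below NSC on X without the regions, and the number of chromosomes that passed in both replicates fell from 18 to 8. The genes with the most NSC peaks lay in the regions, with *C130026I21Rik* crossing the edge of one. *Gm16889* had 73 NSC peaks, *Gm17317* 63, *Gm2864* 62, *Gm17452* 35, *Gm14819* 27, *2610036A22Rik* 26 and *Gm10486* and *C130026I21Rik* 23 each. *Gm16889*, *Gm17317* and *Gm17452* are annotated as long intergenic non-coding RNA genes on chromosome 4, where *Gm16889* contains *Gm17317* and overlaps the end of *Gm17452*.

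Of these 8 genes, 6 were also among the 8 with the most replicate 2 peaks: *Gm2864* had 36, *Gm16889* 22, *C130026I21Rik* 18, *Gm17317* and *Gm17452* 16 each and *Gm10486* 14. The others of that list were *Gm20388*, with 32, and *Sfi1*, with 15. In replicate 1 these 6 genes had between 0 and 11 peaks. The genes with the most replicate 1 peaks were long ones, and they were *Gm20388* (249), whose model spans 4435 kb, *Fgfr2* (131), a growth factor receptor gene whose model spans 3009 kb in this annotation, *Syne1* (116), *Kalrn* (87), *Dst* (85), *Csmd1* (84), *Ptprd* (83) and *Macf1* (82). *Syne1*, *Dst* and *Macf1* encode giant linkers of the cytoskeleton, and 111, 83 and 74 of their peaks were in their own exons. *Kalrn* encodes a guanine nucleotide exchange factor at synapses and had 40 exonic peaks. Replicate 2 had 1 peak at *Syne1*, none at *Kalrn*, 2 at *Dst* and 3 at *Macf1*.

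The overlap of the lists can be read against the control. Of replicate 2 peaks, 17.6% overlapped a replicate 1 peak by at least 1 base [16.9 to 18.3], and of NSC peaks 3.29% did [2.71 to 3.94], an odds ratio of 6.27 (adjusted p = 1.06e-120, Fisher's exact test). Of grid windows 1.08% did. Seen from the other side, 2.41% of replicate 1 peaks overlapped replicate 2 and 0.144% overlapped NSC. NSC peaks overlapped replicate 2 in 12.7%, and replicate 2 peaks overlapped NSC in 4.00%.

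Most of the direct overlap between the replicates was at A or T runs. Of the 1869 replicate 1 peaks that replicate 2 overlapped, 1602 (85.7%) held the run, against 7.83% of the others, and 96 were exonic. Among peaks with the run, 45.9% of replicate 2 peaks and 51.3% of NSC peaks [43.1 to 59.5] overlapped replicate 1, with no difference that passed (odds ratio 0.805, adjusted p = 0.248, Fisher's exact test). Of grid windows with a run, 12.9% did [10.0 to 16.4]. Among peaks without the run, 3.86% of replicate 2 peaks [3.42 to 4.33] and 1.02% of NSC peaks [0.705 to 1.43] overlapped replicate 1, beside 1.03% of grid windows.

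Part of that last difference lay in the Prader-Willi region and in the regions dense with NSC peaks. With both set aside, 3.14% of replicate 2 peaks without the run (190 of 6048) and 1.77% of NSC peaks (29 of 1642) overlapped replicate 1, with an odds ratio of 1.80 (adjusted p = 0.00348, Fisher's exact test). Among all peaks without the run whose middle bases occur once, in or outside these regions, the shares were 4.31% (95 of 2205) and 3.70% (14 of 378) [2.04 to 6.14] and did not differ past the threshold (adjusted p = 0.731, Fisher's exact test). The interval of the NSC share is wide, with 378 peaks. The peaks without the run and with repeated middle bases were likewise taken in or outside these regions. Of them, 3.66% of replicate 2 (182 of 4979) and 0.667% of NSC (19 of 2848) overlapped replicate 1. The odds ratio was 5.65 (adjusted p = 2.27e-18, Fisher's exact test). The regions dense with NSC peaks were chosen by those peaks, and this comparison was not run without them or the Prader-Willi region. Within 10 kb, the distance the study used to join replicates, 1577 of 6048 replicate 2 peaks (26.1%) and 312 of 1642 NSC peaks outside both kinds of region and without the run lay near replicate 1 (odds ratio 1.504, adjusted p = 3.25e-09, Fisher's exact test), beside 23.4% of grid windows without the run.

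**Figure D5:**
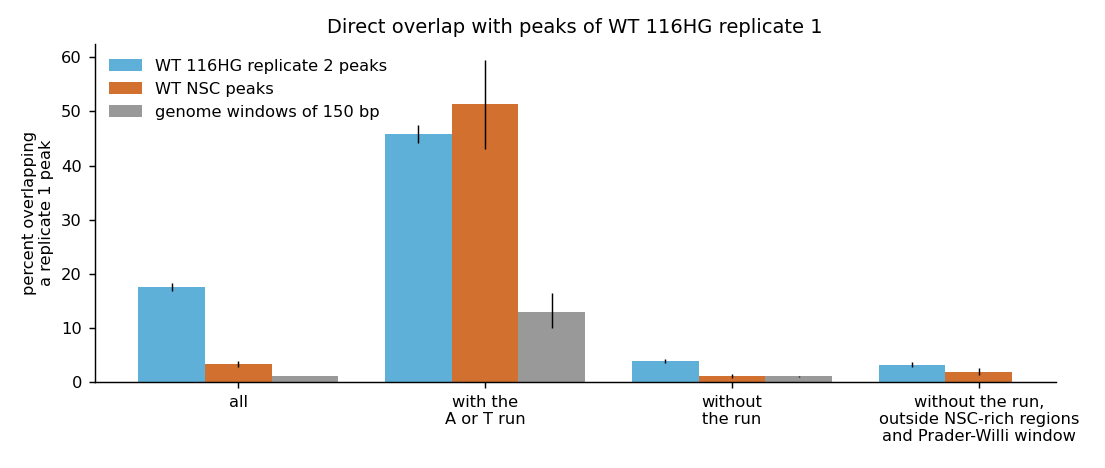
Percent of replicate 2 peaks, NSC peaks and 150-bp grid windows that overlap a replicate 1 peak directly, for all, for those with and without an A or T run, and for peaks without the run outside the NSC-rich regions and the Prader-Willi window, with exact 95% intervals as thin lines (no windows in the last group). With the run, replicate 2 stands at 45.9% and NSC at 51.3%, and without it at 3.86% and 1.02%.

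All 3 lists overlapped directly at 76 NSC peaks (2.25% of that list). Of these, 61 held the run, 53 had repeated middle bases, 2 were in the regions dense with NSC peaks and 3 were exonic. The nearest genes included *Ryr2*, the cardiac and neuronal calcium release channel, *Efna5*, an axon guidance ligand, *Mta3*, *Cntnap5b*, *Erc1*, a presynaptic scaffold protein, and *Ptprd*, and in 30 cases the peak lay inside a gene. The exonic peaks were at *Eef2*, an elongation factor of translation, *Cdc27* and *Pisd*. At 2 places the nearest gene was a copy of *Snord116*.

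In the Prader-Willi region, between the outer ends of *Ube3a* and *Snrpn* (chr7:66484122-67285105), replicate 1 had 361 peaks, replicate 2 288 and NSC 8. These were 0.465%, 2.70% and 0.237% of the 77619, 10664 and 3378 placed peaks of the lists. Within the span of the 137 annotated *Snord115* copies lay 239, 218 and 0 of these peaks, and within that of the 27 *Snord116* copies 30, 61 and 8. All 8 NSC peaks of the region thus stood among the *Snord116* copies. As a share of each list, the *Snord116* span held fewer replicate 1 peaks than NSC peaks, and more replicate 2 peaks. Most peaks lay between the snoRNAs, since 14 of the replicate 1 and 30 of the replicate 2 peaks touched a *Snord115* copy and 2 and 11 a *Snord116* copy. The middle bases were repeated in 69.5%, 94.4% and 87.5% of the peaks of the 3 lists there, and the A or T run was in 1.66% of the replicate 1 peaks and in none of the other lists.

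Of all 37273 annotated genes, 45.8% had a replicate 1 peak inside or within 2 kb, 10.3% a replicate 2 peak and 2.17% an NSC peak. Both *116HG* replicates and not NSC had a peak at 2564 genes, 6.88% of all. Of protein-coding genes, 58.3%, 13.8% and 2.49% had a peak in the 3 lists in turn, and 9.8% had peaks of both replicates and none of NSC. Of the 2851 genes with peaks of both replicates, 287 (10.1%) had an NSC peak. Of the 807 genes with an NSC peak, 52.9% had a replicate 1 peak and 58.0% a replicate 2 peak.

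The 2564 genes were long, with a median of 59.1 kb against 4.38 kb for the other genes. The share of protein-coding genes among those with both replicates and no NSC peak rose with length, from 1.75% of genes under 10 kb to 8.15%, 22.8% and 46.5% at 10 to 50 kb, 50 to 200 kb and over 200 kb. NSC peaks also went with length, from 1.02% to 13.3% over the same classes. In 768 of the genes (30.0%) both replicates had a peak with the run outside exons, and in 793 (30.9%) all replicate 1 peaks were exonic. Exonic peaks of both replicates were at 175 genes. Genes on chromosome X were 4.02% of the 2564 and 17.3% of those with an NSC peak. Pseudogenes were 2.50% and 16.6%, beside 14.0% of all annotated genes. The 2564 leave out every gene with an NSC peak by definition, and the X share of all genes was not counted.

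The 4 genes described next are named by the study for the *116HG* ChIRP, and exonic here means in an exon of any gene. At *Mtor* (chr4:147822720-147931792), all 15 replicate 1 peaks were exonic, 14 of them in exons of *Mtor* itself, with folds from 22.05 to 133.39, and the single replicate 2 peak lay outside exons, 1311 bp from the nearest of them. *Mtor* lies inside the chromosome 4 region dense with NSC peaks, and its nearest NSC peak was 674 kb away. At *Crebbp*, a histone acetyltransferase and coactivator, 29 of 36 replicate 1 peaks were exonic, and the replicate 2 peak was 3540 bp from the nearest one. At *Igf2r*, the imprinted receptor that clears IGF2, 6 of 7 replicate 1 peaks were exonic and the 3 replicate 2 peaks lay 9894 to 10874 bp away. These 3 replicate 2 peaks also lie inside *Airn*, a gene on the opposite strand that overlaps *Igf2r*, so they cannot be assigned to *Igf2r* alone. At *Ccdc12*, 2 of 4 replicate 1 peaks were exonic and the other 2 held a run, one of which is the peak shared with replicate 2 whose sequence is printed above. Of the 4 genes, *Ccdc12* was the only one where the replicates overlapped directly.

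The gene lists were read beside the share of all protein-coding genes and of genes of like length. All 36 matched synaptic neuronal genes had a replicate 1 peak, and 12 had a replicate 2 peak and none an NSC peak, so 33.3% had both replicates and no control, beside 9.8% of all protein-coding genes. They had a median length of 98.7 kb and a median level of 14.5 FPKM. Of protein-coding genes at 10 to 100 FPKM, 99.6% had a replicate 1 peak. Of protein-coding genes of 50 to 200 kb, 78.4% had a replicate 1 peak and 22.8% had both replicates and no control. The members with the most peaks were *Ank2*, with 67 replicate 1 and 5 replicate 2 peaks, *Nrxn3*, with 59 and 3, and *Ank3*, with 56 and none. Ankyrins hold channels at the axon initial segment and nodes, and neurexins are presynaptic adhesion proteins. The many replicate 1 peaks of *Ank3* thus stood without a replicate 2 peak.

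Of 23 core clock genes, 21 had a replicate 1 peak, 7 a replicate 2 peak and none an NSC peak, and the same 7 had both (30.4%). *Rora*, a nuclear receptor of the clock, had 21 replicate 1 peaks and 1 replicate 2 peak, *Clock* itself 20 and none, and *Rorb* 18 and 1. Of 27 genes of mTOR and insulin signalling, 26 had a replicate 1 peak and 8 (29.6%) had both replicates and no control. *Insr*, the insulin receptor, had 14 replicate 1 and 2 replicate 2 peaks, while *Pik3r1* had 21 and none. Of 16 subunits of H3K4 methyltransferase complexes, 15 had a replicate 1 peak and 2 had both replicates, among them *Mll3* with 33 and 1. The shares with both replicates stand beside 22.8% of all protein-coding genes of 50 to 200 kb and 8.15% of those of 10 to 50 kb. A replicate 1 peak was at 78.4% and 64.3% of the genes in these 2 classes. The median level was 2.64 FPKM in the clock list, 2.76 in the mTOR list and 2.99 in the methyltransferase list. Of protein-coding genes at 1 to 10 FPKM, 93.4% had a replicate 1 peak. The median gene had 30.4 kb in the clock list, 58.3 kb in the mTOR list and 26.8 kb in the methyltransferase list.

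Among 33 matched imprinted genes elsewhere in the genome, 26 (78.8%) had a replicate 1 peak, 6 (18.2%) a replicate 2 peak and 1 an NSC peak. The shares of all protein-coding genes were 58.3%, 13.8% and 2.49%. The overlapping genes *Igf2r* and *Airn* were both counted for the same 3 replicate 2 peaks. The median level of the 33 genes was 2.18 FPKM, and 93.4% of protein-coding genes at 1 to 10 FPKM had a replicate 1 peak. *Rasgrf1* had 55 replicate 1 peaks, *Rian*, an imprinted non-coding RNA and snoRNA host, 42 and *Peg3* 31, and none of these 3 had a replicate 2 peak. All 15 matched nuclear long non-coding RNA and snoRNA host genes had a replicate 1 peak and 3 (20%) had a replicate 2 peak. Of all annotated genes, 45.8% and 10.3% had one. The median level of this list was 5.40 FPKM, and of protein-coding genes at 1 to 10 FPKM 93.4% had a replicate 1 peak. Of 7 matched genes of the Prader-Willi and Angelman list, 3 (42.9%) had a replicate 1 peak, 2 (28.6%) a replicate 2 peak and none an NSC peak. Their median level was 0.429 FPKM and their median length 4.66 kb. *Ube3a* had 48 replicate 1 peaks and none in replicate 2, and *Snrpn* had 19 and 1.

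Replicate 1 peaks were also at glial markers, as at 93.4% of all protein-coding genes of 1 to 10 FPKM. All 6 astrocyte, 6 oligodendrocyte and 6 microglia markers had one, and replicate 2 peaks were at 1, 0 and 0 of them. *Slc1a2* had 20 replicate 1 peaks and 1 peak each in replicate 2 and NSC. Of 5 endothelial markers 4 had a replicate 1 peak and *Pecam1* had 3 in each replicate. Of the 82 ribosomal protein genes, short genes with a median level of 146 FPKM, 79 (96.3%) had a replicate 1 peak and 5 (6.10%) a replicate 2 peak. The replicate 1 share was above and the replicate 2 share below that of protein-coding genes at large. Their median length was 3.24 kb, and both shares were above the 40.0% and 3.63% of protein-coding genes under 10 kb. Of protein-coding genes over 100 FPKM, 99.2% had a replicate 1 peak and 8.02% a replicate 2 peak.

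Receptor families of the nose and keratins had replicate 1 and replicate 2 peaks at smaller shares of genes than the 58.3% and 13.8% of all protein-coding genes. Their genes are short, with medians of 0.963 kb (olfactory), 1.07 kb (vomeronasal) and 7.27 kb (keratin). Of protein-coding genes under 10 kb, 40.0% had a replicate 1 peak, 3.63% a replicate 2 peak and 1.02% an NSC peak. Beside that 3.63%, the vomeronasal replicate 2 share was higher and the olfactory and keratin shares lower. Of 1087 olfactory receptor genes, 24 (2.21%) had a replicate 1 peak, 15 (1.38%) a replicate 2 peak and 1 an NSC peak. Of 46 keratin genes, 5, 1 and 0 had one. Of 318 vomeronasal receptor genes, 18 (5.66%) had a replicate 1 peak, 28 (8.81%) a replicate 2 peak and 16 an NSC peak, where 2.49% of all protein-coding genes had one, and *Vmn1r112* had 6 NSC peaks and 1 replicate 2 peak. This family, whose members lie in clusters of near-identical copies where reads can be split between copies, was the only one of the 15 lists with more replicate 2 than replicate 1 genes.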

How the data were processed

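Peak lists of 3 WT brain ChIRP libraries were analysed, with the 2 *Snord116del* lists as values beside them. The authors aligned the reads with Bowtie2 (2.0.0 in the submitters' processing notes) to mm9 and called peaks with MACS (1.4.2) in each library, without pooling. Their filters left peaks enriched more than 20 times over input at a false discovery rate below 5%. Fold over input, a ratio, was deposited for each peak of the other lists, and the list of replicate 2 has positions only. The deposited FPKM of WT cortex is 1 value per group and gene, from Cuffdiff, and only the Zeitgeber +6 h group was used, although both times had been planned. The authors' comparisons in that table (fold changes, p-values and q-values) were not used.

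Depth is not part of the peak lists. The paper's methods give a like number of aligned reads for replicate 1 and WT NSC and fewer for replicate 2, which had the most reads. Intervals cover counting error only.

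Peaks were read with starts counted from 0 and placed by their middle base using GENCODE genes on NCBIM37, which is the mm9 assembly. Genes within 2 kb of a peak were counted. Sequence came from that reference. Grid windows of 150 bp every 20 kb served as the genome background (127946 without unknown bases). Fisher's exact tests were adjusted by Benjamini-Hochberg within the family of place shares (6 tests), chromosomes (42), sequence features (16) and overlaps (14). The functions were tested on simulated data. The members and lists were chosen with earlier results of these data known. Named were the 8 genes with the most peaks in each list, genes the study names, up to 4 examples a gene list (some are not reported here), genes at peaks shared by all 3 lists and at the 3 highest folds. The lists were 15 in number. Sequence runs, repeated bases and NSC-rich regions were added after the data were seen. Alternatives changed the overlap rule, merging, fold, gene class, chromosomes, distance and replicates. Python 3.11.15, pandas 2.3.3, scipy 1.17.1, statsmodels 0.14.6 and pysam 0.24.0 were used.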

Additional observations from a re-analysis of the deposited data

How the results depend on the processing

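Of the 77 alternative values, 51 kept their direction and side of the threshold or stayed within the limits set. Differences are percentage points, mean of the replicates minus NSC. The exon difference of 34.1 ranged from -0.677 to 68.9 when 1 *116HG* replicate was left out, turned negative without replicate 1, and was 74.1 and passed in the upper quartile of the fold, where replicate 2 has no value. The difference inside genes of 28.8 fell to 23.4 and no longer passed with X and Y left out (5.04 to 52.6 with 1 replicate left out). The start site difference of 11.8 did not pass as reported, and passed at 11.8 with peaks within 10 kb merged, 29.5 in the upper quartile, 14.4 with protein-coding genes and 9.72 within 1 kb (1.06 to 22.6 with 1 replicate left out). Chromosomes that passed fell from 18 to 8 without the NSC-rich regions. NSC peaks within 10 kb of either *116HG* list were 63.2%, against 13.7% for direct overlap, 39.2% at 2 kb, 88.4% at 50 kb, 59.3% in the upper quartile and 16.9 to 56.4% with 1 replicate left out. Genes with both replicates and no NSC peak numbered 2564, 4252 within 10 kb, 1490 with run peaks left out, and 3372 to 16653 with 1 replicate left out, where a single replicate was required. Genes with an NSC peak within 10 kb were 1276, against 807. Median width was 208 bp in replicate 1 and 133 bp in NSC in the upper quartile, and 95 bp in replicate 2 and 136 bp in NSC without X and Y. GC of the middle 100 bases was 48.0% in replicate 1. NSC-rich regions held 43.3% of NSC peaks at 50 or more a bin, against 46.7%. The causes were not tested. No paired analysis was possible because NSC is a single library and the groups share fewer than 2 replicate numbers.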
